A study of Mus musculus with 3 samples.

Results

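The matrix metalloproteinases (MMPs), the ADAMTS proteases, the ADAMTS-like proteins and their inhibitors, the tissue inhibitors of metalloproteinases (TIMPs), were followed by single-cell RNA sequencing (scRNA-Seq) through every cell type recovered from the mouse lung at postnatal day 14 (P14). Members were taken by gene symbol from the gene list of the deposited count tables, which gave 51 of 28692 genes: 23 Mmp genes, 19 Adamts genes, 5 Adamtsl genes and 4 Timp genes. The samples were the whole lungs of 3 wild-type C57BL/6 mice held in room air (RA) from day 1 to day 14 of life, named mouse 2, 3 and 4 after their labels, with 1 library per mouse. All 3 mice belonged to this single group, so the comparisons run between cells of different types and none runs between treatments. The tables hold unique molecular identifiers (UMIs), 1 count per captured transcript whatever its length, with 23744510, 22476491 and 25192427 UMIs in mice 2, 3 and 4.

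MMPs are zinc-dependent proteases that are made as inactive proenzymes and cut collagens, elastin, proteoglycans and many signalling proteins at or near the cell surface. ADAMTS proteases are secreted relatives that process procollagens, cleave proteoglycans such as versican and aggrecan, or act on the fibrillin microfibrils on which elastin is laid down, while ADAMTS-like proteins keep the ancillary domains and lack the protease. TIMPs bind the active site of these enzymes, and in the alveolar lung of the second postnatal week this balance acts while septa elongate and the collagen and elastin network is being built.

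Of 9644 deposited barcodes, 7642 were kept because they had 200 or more detected genes and no more than 20% of their UMIs on mitochondrial genes (2386, 2601 and 2655 in mice 2, 3 and 4). The 3 pairs of libraries shared 5, 2 and 5 barcodes. Cells were clustered with the 51 members kept out of the genes that shaped the clusters, and clusters were named from marker genes, so each name below stands for cells that resemble that type. The stromal class held 1542 cells, the endothelial cells (ECs) 960, the epithelial class 1285 and the immune class 3030, and 825 cells fell outside these 4 classes. The latter included 108 dividing cells and clusters led by Hpgd (452 cells), the heart muscle gene Myl7 (157), Snhg9 (49, of which 46 from mouse 4) and the platelet gene Pf4 (31). Among the named types of the 4 classes median depth ran from 1968 UMIs per cell in interstitial macrophage-like to 38565 in club-like cells. Immune cells made up 29.2% to 55.2% of the kept cells by mouse, with the highest share in mouse 3. Levels are given as CPM, the UMIs of a gene per 1000000 UMIs of the same cells, in mice 2, 3 and 4, in that order, and a type was given a level only where a mouse had at least 10 of its cells. The p-values come from edgeR's quasi-likelihood test on UMIs summed by mouse and class or type. They were adjusted over all genes tested by the Benjamini-Hochberg method with a threshold of 0.05. Each sets a difference against the spread of sums within groups, pooled over all classes or types fitted together. The main fit had no mouse term, so the several sums of a mouse entered as separate samples, although they are not independent.

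The stromal cells carried most of the matrix protease and inhibitor transcripts. Of the 138518 member UMIs in kept cells, which were 0.208% of all UMIs, the stromal class held 65.1% ± 2.60 (SD, n = 3 mice), although it was 20.2% ± 3.66 of the cells. The epithelial class held 16.4% ± 3.59, the ECs 12.9% ± 0.982 and the immune class 3.74% ± 1.5. These shares weight a cell by its depth, and with every cell weighted equally they were 60.7% (stromal), 10.0% (epithelial), 13.3% (EC) and 10.6% (immune), so that the epithelial class no longer exceeded the others outside the stroma. ADAMTS genes gave 58126 of these UMIs, TIMPs 42122, MMPs 32979 and ADAMTS-like genes 5291. Summed over all 51 members, the level was 5144 ± 263 CPM in stromal cells, 1872 ± 121 in ECs, 983 ± 90.6 in epithelial cells and 364 ± 15.1 in immune cells, and no mouse overlapped between these classes. B cell-like cells, the most numerous immune type with 1784 cells, had 77.9 ± 4.26 CPM for all members together. Since free RNA in droplets can add a few UMIs to any cell, that level is given as a low reference for the values that follow. It is not a measure of free RNA alone, and how much of it is free RNA was not tested. Adamts10 and Adamts2 had similar totals in kept cells, 15480 and 13262 UMIs. In immune cells their means were 38.5 and 1.42 CPM.

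**Figure D1:**
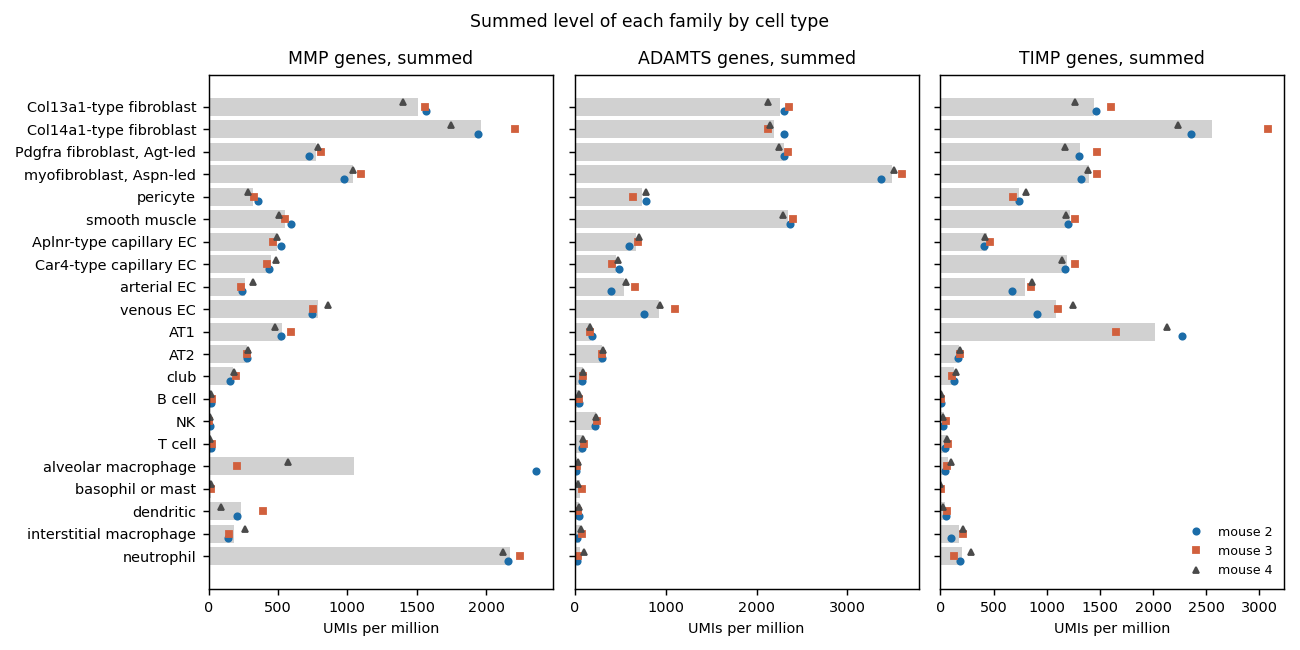
Summed level of the MMP, ADAMTS and TIMP genes (CPM) in each named cell type, with bars for the mean of the mice and points for the single mice. The MMP sum peaked in the neutrophil-like cells (2176 CPM) and the Col14a1-type fibroblasts (1966 CPM), the ADAMTS sum in the Aspn-led myofibroblasts (3492 CPM) and the TIMP sum in the Col14a1-type fibroblasts (2557 CPM) and AT1-like cells (2017 CPM).

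Of the 51 members, 45 had at least 1 UMI in the kept cells, and 34 reached a mean of 20 CPM in at least 1 class or type. Among these 34, and over types with sums in all 3 mice, the highest type was stromal for 24, immune for 6 (Adamts14, Mmp8, Mmp9, Mmp12, Mmp13 and Mmp19), epithelial for 3 (Mmp11, Mmp15 and Timp3) and endothelial for 1 (Mmp16). The same split was not computed for all genes, so these counts describe the members only. For Adamts1, Mmp15, Mmp19, Timp1 and Timp3 the next type was of another class and overlapped with the highest. Of 334 Mmp13 UMIs, 311 lay in 1 stromal chondrocyte-like cell, a type without such sums. The 17 members below 20 CPM everywhere were Adamts3, Adamts6, Adamts13, Adamts16, Adamts18, Adamts19, Adamts20, Mmp24, Mmp25, Mmp27, Mmp28 and 6 genes without a single UMI, Mmp1a, Mmp1b, Mmp7, Mmp10, Mmp20 and Mmp21. A count of 0 over all kept cells allows a level of up to 0.0451 CPM (3 UMIs, counting error only).

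**Figure D2:**
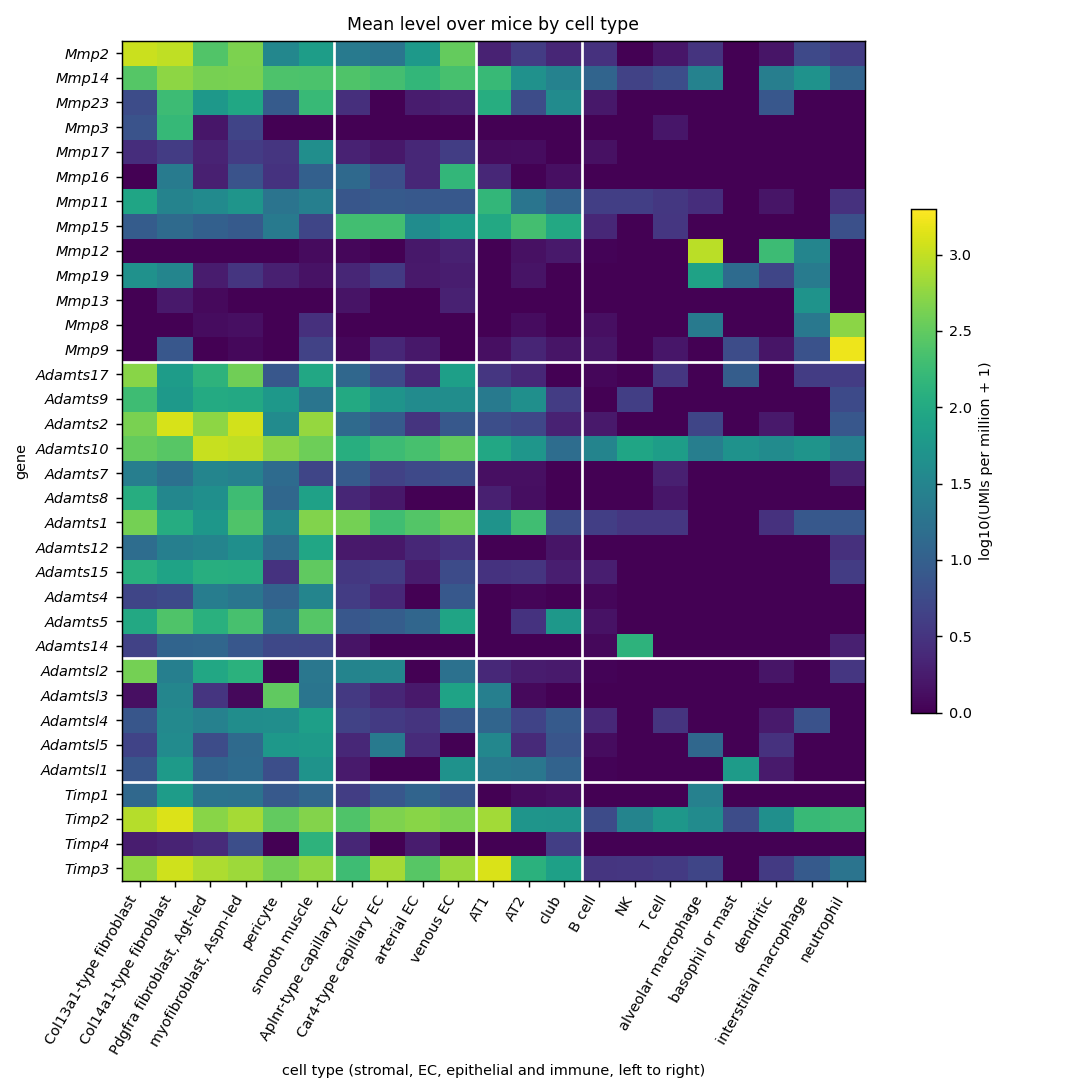
Mean level over the mice, as log10 of CPM plus 1, of the 34 members that reached 20 CPM in some class or type (rows) in 21 cell types (columns). Bright colours mark high levels. Most rows are brightest in the stromal columns, with single bright cells for Mmp8 and Mmp9 in the neutrophil-like column, Adamts14 in the NK-like column and Mmp16 in the venous EC column.

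The same order of classes was tested gene by gene over the 12 sums of 4 classes and 3 mice. After the filter on low sums 37 members were tested, and since that filter lets a gene pass through the class in which it is high, the counts describe these members only. The stromal class was higher than each of the other 3 classes for 24 members, where 15.2% of the 14249 genes tested met that rule. These were Adamts2, Adamts4, Adamts5, Adamts7, Adamts8, Adamts9, Adamts10, Adamts12, Adamts15, Adamts17, Adamtsl2 to Adamtsl5, Mmp2, Mmp3, Mmp14, Mmp17, Mmp19, Mmp23 and all 4 Timp genes. The immune class was higher than each other class for 4 members (Adamts6, Mmp8, Mmp9 and Mmp12; 22.8% of genes), the ECs for 3 (Adamts18, Mmp16 and Mmp28; 10.8% of genes) and the epithelial class for 1 (Mmp15; 16.7% of genes). Adamts1, Adamts14, Adamtsl1, Mmp11 and Mmp13 passed in no class. Taken pair by pair, 29 members were higher in stromal cells than in ECs (31.0% of genes) and 4 were lower (24.5%). Against epithelial cells 29 were higher (36.0%) and 2 lower (31.4%), and against immune cells 29 were higher (38.9%) and 4 lower (37.3%). The median log2 difference over the tested members was 2.59, 3.31 and 5.14 in these pairs, and 0.06, 0.07 and 0.02 over all genes tested. Outside the stroma, ECs were above epithelial cells for 19 members (33.7%) and below for 6 (32.7%), above immune cells for 24 (34.1%) and below for 6 (35.4%), and epithelial cells were above immune cells for 17 (37.6%) and below for 6 (37.2%).

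The gelatinases, which cut denatured collagen and basement membrane collagen, were made by different cells. Mmp2 (chr8:92827291-92853420), which is activated at the cell surface by Mmp14 with Timp2 as the bridge, was a stromal transcript with 409, 478 and 377 CPM in stromal cells and 55.4, 70.6 and 68.8 CPM in ECs. The classes did not overlap, and stromal cells were higher by 2.81 ± 0.15 (log2, SE; adjusted p = 4.31e-10). Within the stroma Mmp2 was highest in the Col13a1-type fibroblasts at 1167, 1090 and 999 CPM and in the Col14a1-type fibroblasts at 1034, 980 and 874 CPM, and these ranges overlapped. The Aspn-led myofibroblasts had 418, 461 and 454 CPM, while smooth muscle-like cells had a mean of 67.3 and pericyte-like cells of 32.6 CPM. Mmp2 in ECs lay largely in the venous EC cluster, at 331, 334 and 334 CPM, against means of 21.7 CPM in Aplnr-type and 18.2 CPM in Car4-type capillary ECs. The venous cluster was higher than the mean of the other EC types by 3.59 ± 0.23 (log2; adjusted p = 1.23e-18). That cluster also held the lymphatic markers Ccl21a and Mmrn1, so its values belong to a mixture of venous and lymphatic-like cells.

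Mmp9 (chr2:164940780-164955850), the gelatinase stored in neutrophil granules, was at 1801, 1586 and 1477 CPM in the neutrophil-like cells and at a mean of 0.55 CPM in B cell-like cells. No other named type came near this level, and the next was the Col14a1-type fibroblasts with 20.6 CPM in mouse 3 and 0 in mice 2 and 4. At the class level immune cells were above stromal cells by 6.61 ± 0.39 (log2; adjusted p = 5.11e-10). Mmp8, the neutrophil collagenase, followed the same cells with 339, 638 and 594 CPM in the neutrophil-like type. Both genes were in 9 members called higher in neutrophil-like cells than in the mean of the other immune types, where 25.9% of the 12437 genes tested were called, about the same share as the 26.5% of members. The other 7 were Adamts2, Adamts9, Adamts12, Adamts15, Mmp15, Timp2 and Timp3. Of these only Timp2 had over 100 UMIs in the 467 cells, at 178, 129 and 245 CPM, while Adamts2, Adamts9, Adamts12, Adamts15 and Mmp15 had 2 to 8 UMIs each. Without mouse 4 the calls for Adamts2, Adamts12, Adamts15, Mmp15 and Timp3 were lost.

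**Figure D3:**
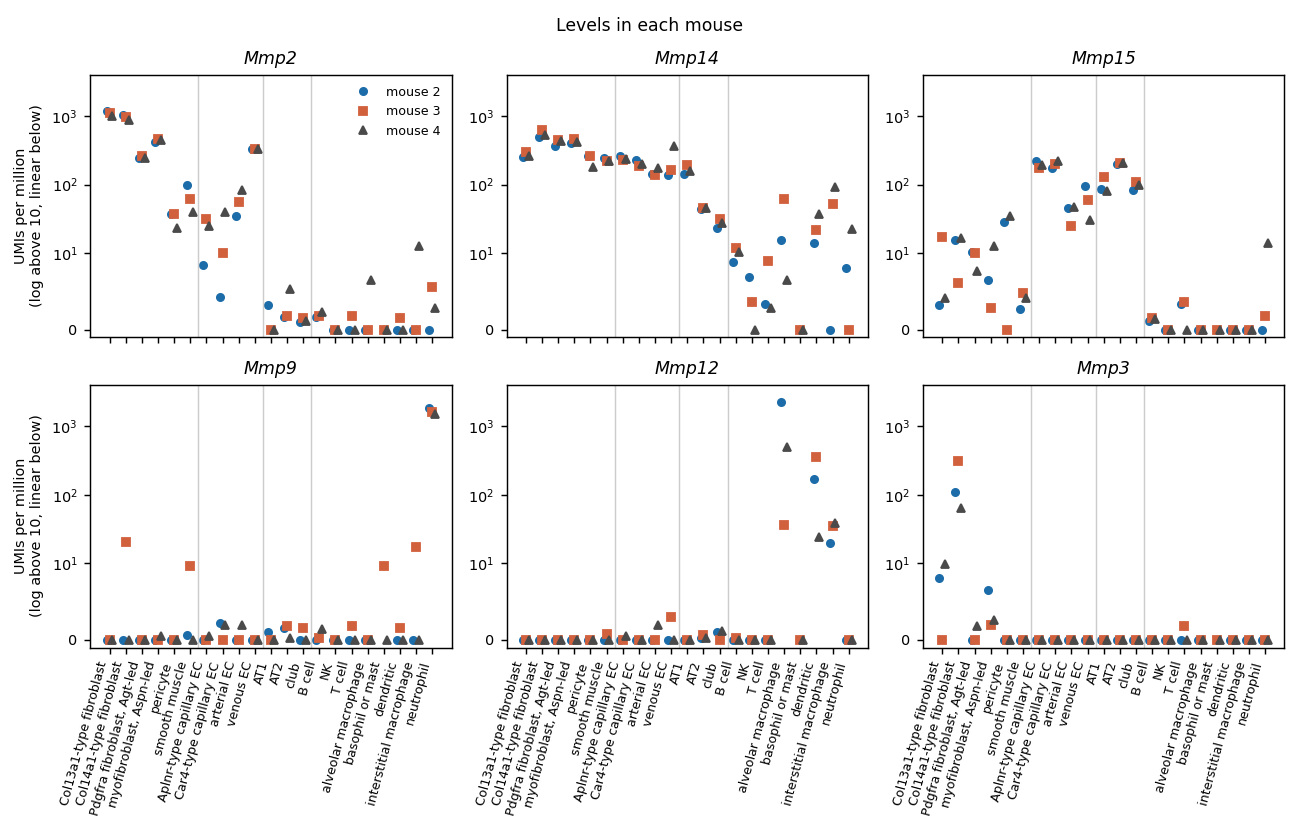
Level of Mmp2, Mmp14, Mmp15, Mmp9, Mmp12 and Mmp3 (CPM) in each cell type, with 1 point per mouse. Mmp9 sat between 1477 and 1801 CPM in neutrophil-like cells of every mouse, whereas Mmp12 in the alveolar macrophage-like cells ran from 35.8 to 2221 CPM.

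The transmembrane and membrane-anchored MMPs differed in their leading cell types, although Mmp14 and Mmp15 were both read in ECs and epithelial cells. Mmp14 (chr14:54431612-54445364), the main membrane activator of pro-Mmp2, was broad, with 336, 385 and 356 CPM in stromal cells, 226, 198 and 238 CPM in ECs and 52.5, 57.0 and 60.9 CPM in epithelial cells. Stromal cells exceeded ECs by 0.81 ± 0.11 (log2; adjusted p = 9.28e-06) with no overlap. The Col14a1-type fibroblasts had the most Mmp14 at 495, 620 and 528 CPM, and AT1-like cells, with 142, 194 and 156 CPM, were above AT2-like cells, with 44.4, 45.4 and 46.4 CPM. B cell-like cells had 10.5 ± 1.56 CPM.

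Mmp15 (chr8:95352268-95375080), also transmembrane, was low in the stroma, with 8.0, 8.09 and 9.6 CPM there. It stood at 203, 204 and 206 CPM in AT2-like cells, 177, 202 and 225 CPM in Car4-type and 222, 177 and 190 CPM in Aplnr-type capillary ECs. These 3 types overlapped and were not separated. AT1-like cells (85.9, 130 and 79.6 CPM), venous ECs (mean 62.8 CPM) and arterial ECs (mean 39.1 CPM) were lower. Between classes Mmp15 was 0.65 ± 0.08 (log2) higher in epithelial cells than in ECs (adjusted p = 5.6e-06), but without the scaling by trimmed mean of M values (TMM) the difference was 0.19 ± 0.09 with an adjusted p of 0.0605. Against stromal cells the epithelial class was higher by 4.74 ± 0.11.

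Mmp16, another transmembrane MMP, was endothelial and lay in the venous EC cluster at 164, 170 and 116 CPM. The next type, the Col14a1-type fibroblasts, had 18.2, 26.8 and 23.7 CPM, and no mouse overlapped. Mmp17, which is held in the membrane by a lipid anchor, was found in smooth muscle-like cells at 41.6, 40.1 and 42.2 CPM, and the next type had a mean of 3.01 CPM. Mmp25, the anchored MMP of leukocytes, stayed low with 8.08, 13.1 and 11.3 CPM in neutrophil-like cells and was without a UMI in stromal, endothelial and epithelial cells. Mmp24 had 8 UMIs in all kept cells.

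A group of 10 Mmp genes lies on mouse chromosome 9, from Mmp13 at 7272514 to the end of Mmp7 at 7699585 (GRCm38, GENCODE annotation, as for the other positions given). At P14 neighbours in this group were read in different cells or were not seen at all. Mmp13, a collagenase, had its highest tested type in interstitial macrophage-like cells, Mmp12, the macrophage elastase, in alveolar macrophage-like cells, Mmp3, a stromelysin, in Col14a1-type fibroblasts and Mmp8 in neutrophil-like cells. Mmp27 had at most 11.4 CPM in any mouse and type, in Col14a1-type fibroblasts. Mmp1a, Mmp1b, the matrilysin Mmp7, the stromelysin Mmp10 and the enamel protease Mmp20 had 0 UMIs in the 7642 kept cells. The neighbours thus differed widely in level. To show what lies in front of them, the last 100 bases before a RefSeq start (GRCm38.p6) are given for 5 of them. These are Mmp13, Mmp12, Mmp3 and Mmp8, which reached 20 CPM in a type, and Mmp10, which had no UMI. The AP-1 letters TGAGTCA or their reverse complement TGACTCA and the letters TATAAA are in capitals. All 5 lie on the plus strand, at chr9:7272414-7272513 for Mmp13, chr9:7347274-7347373 for the second listed start of Mmp12, chr9:7445722-7445821 for Mmp3, chr9:7502242-7502341 for Mmp10 and chr9:7558329-7558428 for Mmp8.
Mmp13: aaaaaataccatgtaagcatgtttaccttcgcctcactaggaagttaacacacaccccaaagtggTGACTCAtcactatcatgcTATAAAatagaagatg
Mmp12: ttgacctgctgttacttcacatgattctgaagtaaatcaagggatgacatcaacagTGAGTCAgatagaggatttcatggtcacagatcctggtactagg
Mmp3: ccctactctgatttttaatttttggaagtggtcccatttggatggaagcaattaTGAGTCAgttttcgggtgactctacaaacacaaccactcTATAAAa
Mmp10: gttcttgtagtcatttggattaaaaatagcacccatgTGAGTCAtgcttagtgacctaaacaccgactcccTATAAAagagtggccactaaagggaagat
Mmp8: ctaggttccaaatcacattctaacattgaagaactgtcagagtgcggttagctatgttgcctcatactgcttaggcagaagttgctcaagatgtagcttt

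AP-1 letters, the binding sequence of the Fos and Jun factors, were present on either strand in the 250 bases upstream of 7 of the 36 members with a RefSeq promoter entry. All 7 belonged to the chromosome 9 group, where they were 70.0% of 10 genes, while none of the other 26 members had them, and 5.16% of 27025 genes did. TATAAA on the gene's strand, starting in the last 50 upstream bases, was found in 6 of the 10 and in 2 of the 26 others, against 3.15% of all genes. The letters were shared by genes that were read and genes that were not. Mmp13, Mmp3 and the second listed start of Mmp12 carried the AP-1 letters, and so did Mmp1a, Mmp1b, Mmp7 and Mmp10 with 0 UMIs. Mmp8 and Mmp27, the latter with 11 UMIs, had neither motif. The first listed start of Mmp12 lacked them. A match describes these letters only and was not tested as a binding site.

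Of the genes of the chromosome 9 group that reached 20 CPM in a type, Mmp12, Mmp3 and Mmp13 rested on few cells. Mmp8 was found in 149 cells with 6.22% of its UMIs in the highest. Mmp12 in alveolar macrophage-like cells was at 2221, 35.8 and 490 CPM, a spread wider than its distance to the dendritic-like cells at 169, 358 and 24.3 CPM, and these types overlapped. Of 720 Mmp12 UMIs, 246 came from 1 alveolar macrophage-like cell of mouse 2, and the highest 2 cells together gave 56.3%. The immune class was above the epithelial class by 6.83 ± 0.70 (log2). With the highest cell of every member left out, 42 cells in all, the difference was 6.03 ± 0.35 (adjusted p = 4.2e-10). The second cell, with 159 Mmp12 UMIs, stayed in, and the epithelial class held 9 UMIs. This alternative therefore cannot tell whether the call depends on a few cells.

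Mmp3 was at 109, 313 and 64.3 CPM in Col14a1-type fibroblasts and below 10 CPM in every mouse of the other tested types. The stromal class held 267 of its 268 UMIs, and 79 of them lay in 1 cell. DESeq2 gave an adjusted p of 0.51 for Mmp3 in Col14a1-type fibroblasts against the other stromal types. Mmp13 had 334 UMIs, of which 311, or 93.1%, came from a single chondrocyte-like cell of mouse 3 with 37676 UMIs in total. Only 15 cells held any Mmp13, and the interstitial macrophage-like cells had 78.9, 8.64 and 58.6 CPM. For Mmp13 the stromal class was not separated from the immune class (adjusted p = 0.0536).

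**Figure D4:**
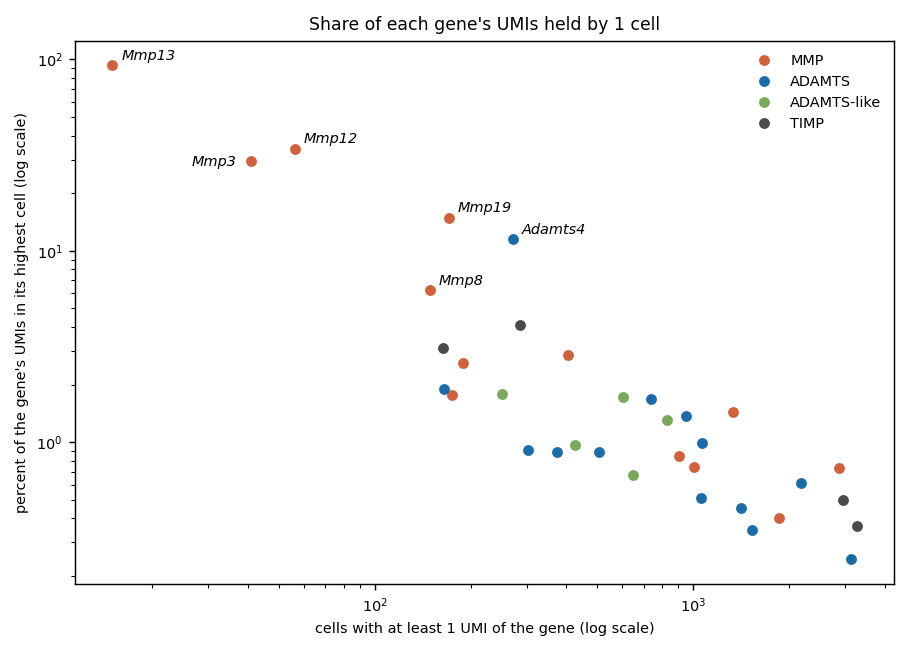
For each member with at least 100 UMIs, the number of cells with a UMI (log axis) against the percent of the member's UMIs that lay in its highest cell. Mmp13 (15 cells, 93.1%), Mmp12 (56 cells) and Mmp3 (41 cells, 29.5%) stand apart from the members found in more cells.

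Of the remaining MMPs, Mmp11, Mmp23 and Mmp19 were each read in cells of different classes. Mmp11, a stromelysin that is activated inside the cell by furin, was at 170, 146 and 141 CPM in AT1-like cells, above the Col13a1-type fibroblasts at 104, 70.1 and 80.3 CPM with no overlap. AT1-like cells exceeded the other epithelial types by 3.05 ± 0.18 (log2; adjusted p = 2.54e-21). Mmp23, an MMP that lacks the hemopexin domain, was at 189, 190 and 169 CPM in Col14a1-type fibroblasts, 162, 178 and 151 CPM in smooth muscle-like cells and 118, 120 and 101 CPM in AT1-like cells. The fibroblasts and smooth muscle-like cells overlapped, and AT1-like cells lay below both. Mmp19, which cuts basement membrane proteins, was at 110, 66.5 and 58.8 CPM in alveolar macrophage-like cells and 35.8, 66.9 and 33.8 CPM in Col13a1-type fibroblasts, which overlapped. The stromal excess of Mmp19 over immune cells, 1.09 ± 0.36 (log2; adjusted p = 0.0131), fell to 0.41 ± 0.35 with an adjusted p of 0.307 without mouse 3. Mmp28, or epilysin, was an EC transcript at a low level, 4.10, 3.90 and 5.19 CPM, and below 2 CPM in every mouse of the other classes.

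Among the ADAMTS genes the procollagen N-proteinases, which trim the amino end of fibrillar procollagens, were split between stroma and lymphocytes. Adamts2 (chr11:50602084-50807573) was a stromal transcript, with 791, 688 and 735 CPM in stromal cells against 7.62, 8.58 and 12.8 CPM in ECs, a difference of 6.34 ± 0.16 (log2; adjusted p = 2.66e-13). It was high in Col14a1-type fibroblasts (1345, 1189 and 1216 CPM) and Aspn-led myofibroblasts (1160, 1213 and 1202 CPM), which overlapped, and had a mean of 37.5 CPM in pericyte-like cells. Adamts14 was found in NK-like cells at 160, 131 and 119 CPM, and in all other named immune types outside the mixed T and NK cluster it had 3 UMIs in all. Stromal cells had 7.16, 8.28 and 6.45 CPM of Adamts14. Adamts3 had 35 UMIs.

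Of the proteoglycan-cleaving ADAMTS genes, Adamts1, Adamts4, Adamts5 and Adamts15 had their highest mean in smooth muscle-like cells. Adamts8 had it in Aspn-led myofibroblasts and Adamts9 in Col13a1-type fibroblasts. For Adamts1, Adamts4, Adamts5 and Adamts8 the next type overlapped with the highest. Adamts1 was shared among classes, with 196, 316 and 252 CPM in stromal cells, 295, 371 and 367 CPM in ECs and 161, 158 and 154 CPM in epithelial cells. Stromal cells and ECs overlapped, and their difference did not pass (adjusted p = 0.0608), although ECs were called higher once the mouse was fitted as a block. Smooth muscle-like cells had 345, 637 and 447 CPM of Adamts1, Aplnr-type capillary ECs 367, 415 and 430 CPM and AT2-like cells 198, 191 and 199 CPM, where AT2-like cells exceeded the other epithelial types by 3.80 ± 0.27 (log2; adjusted p = 1.42e-17). Adamts5, the main aggrecanase of cartilage, which lies near Adamts1 on chromosome 16, was higher in the stroma with 174, 200 and 169 CPM, against 14.1, 21.9 and 14.8 CPM in ECs. Within the stroma Adamts5 was at 220, 324 and 256 CPM in smooth muscle-like cells and 252, 251 and 230 CPM in Col14a1-type fibroblasts, which overlapped. Club-like cells were the epithelial type with Adamts5, at 46.6, 59.6 and 62.6 CPM.

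Adamts8 and Adamts15, which lie near each other on opposite strands of chromosome 9, differed in their leading stromal type. Adamts15 was at 321, 321 and 291 CPM in smooth muscle-like cells, and no mouse of the next type, Col13a1-type fibroblasts at 132, 112 and 118 CPM, came close. Adamts8 was at 207, 166 and 188 CPM in Aspn-led myofibroblasts, which overlapped with the Col13a1-type fibroblasts at a mean of 113 CPM. In smooth muscle-like cells it was at 78.5, 77.1 and 75.3 CPM. Both genes were under 5 CPM in every mouse in ECs, epithelial and immune cells. Adamts9, a versican-cleaving protease, was higher in Col13a1-type fibroblasts at 173, 194 and 190 CPM than in any other type, with Aplnr-type capillary ECs at 101, 102 and 96.5 CPM. Its class difference between stromal cells (80.3, 85.5 and 92.1 CPM) and ECs (75.6, 80.0 and 71.8 CPM) was small, 0.30 ± 0.09 (log2; adjusted p = 0.00901), and was lost without TMM (adjusted p = 0.0899) and without mouse 4 (adjusted p = 0.152). Adamts4, an aggrecanase, was low, with 55.7, 16.9 and 21.1 CPM in smooth muscle-like cells, and 43 of its 375 UMIs came from 1 such cell of mouse 2. The Agt-led Pdgfra fibroblasts, at a mean of 24.1 CPM, overlapped with these cells and were also called above the other stromal types.

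The ADAMTS genes tied to microfibrils were read mostly in fibroblasts. Adamts10 (chr17:33524204-33553782), which binds fibrillin, was at 1028, 1108 and 1062 CPM in the Agt-led Pdgfra fibroblasts, followed by the Aspn-led myofibroblasts at 872, 1001 and 983 CPM with no overlap. The Agt-led fibroblasts were above the other stromal types by 1.15 ± 0.11 (log2; adjusted p = 1.23e-12). Adamts10 had at least 20 CPM in 21 of 22 types, and B cell-like cells held 28.8, 28.4 and 33.2 CPM there. T cell-like cells had 60.6, 75.6 and 67.2 CPM and NK-like cells 55.6, 110 and 91.6 CPM, and both were called above the other immune types. Adamts17, also linked to fibrillin, was at 539, 564 and 462 CPM in Col13a1-type fibroblasts and 424, 354 and 354 CPM in Aspn-led myofibroblasts, with no overlap. Adamts6, a relative of Adamts10, was the only ADAMTS protease called highest in immune cells, with 8.91, 11.8 and 10.4 CPM against 5.50, 5.97 and 6.14 CPM in stromal cells (0.96 ± 0.25 on the log2 scale, adjusted p = 0.00287). Under a stricter cell filter (500 genes, 10% mitochondrial UMIs) this fell to 0.63 ± 0.28 with an adjusted p of 0.058.

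Adamts7 and Adamts12, which cut cartilage oligomeric matrix protein, were low and stromal. Adamts12 was at 86.5, 76.3 and 101 CPM in smooth muscle-like cells and 43.4, 44.8 and 39.9 CPM in Aspn-led myofibroblasts, and Adamts7 reached 24.9, 35.2 and 31.4 CPM in the Agt-led Pdgfra fibroblasts. Adamts13, the protease of von Willebrand factor, had 11 UMIs in all. Adamts18 was an EC transcript at 2.93, 4.68 and 1.91 CPM, with 13, 27.3 and 12.7 CPM in the venous EC cluster and 0 UMIs in stromal and immune cells. Its EC excess over epithelial cells, 1.95 ± 0.55 (log2; adjusted p = 0.00942), missed the threshold without mouse 2 (adjusted p = 0.0808).

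Adamtsl2 to Adamtsl5 were called highest in the stroma, whereas Adamtsl1 did not separate stromal from epithelial cells (adjusted p = 0.913). Adamtsl2, whose product binds fibrillin and the latent TGF-β complex, was at 492, 443 and 273 CPM in Col13a1-type fibroblasts. The next type, the Aspn-led myofibroblasts, had a mean of 127 CPM with no overlap. Against the mean of the other stromal types on the log scale, the Col13a1-type fibroblasts were higher by 4.76 ± 0.21 (log2; adjusted p = 3.65e-23). That fold is not the distance to the next type. The Aspn-led myofibroblasts and the Agt-led Pdgfra fibroblasts were also called higher for Adamtsl2. Adamtsl3 marked the pericyte-like cells at 290, 326 and 320 CPM, with 45.4, 115 and 83.5 CPM in the venous EC cluster and at most 50.8 CPM in any mouse of the other stromal types. Its class difference, stromal over ECs, was 1.04 ± 0.29 (log2; adjusted p = 0.00904), but the classes overlapped and the call was lost without mouse 2 (adjusted p = 0.191) or mouse 4 (adjusted p = 0.0659). Adamtsl4 (74.5, 65.0 and 75.3 CPM) and Adamtsl5 (63.7, 70.7 and 48.6 CPM) were highest in smooth muscle-like cells, and Adamtsl5 overlapped with pericyte-like cells at 40.2, 80.0 and 51.4 CPM. Adamtsl1 was at 50, 59.7 and 74.5 CPM in Col14a1-type fibroblasts. In basophil- or mast-like cells it was at 77.1 and 49.6 CPM in mice 3 and 4, the only mice with at least 10 of these cells. Those 2 levels stand for only 8 and 3 UMIs.

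Timp2 and Timp3 were read in stromal, endothelial and epithelial cells alike, while Timp1 was low throughout and Timp4 stayed low outside smooth muscle-like cells. Timp2 (chr11:118301069-118355740), the inhibitor that also assists Mmp2 activation, was at 642, 742 and 626 CPM in stromal cells, 286, 370 and 371 CPM in ECs and 133, 99.7 and 147 CPM in epithelial cells, with no overlap. Timp3 (chr10:86300372-86349506), the matrix-bound inhibitor that acts on ADAMTS proteases as well as MMPs, was at 653, 778 and 623 CPM, 328, 389 and 300 CPM and 256, 202 and 325 CPM in the same classes. Stromal cells exceeded ECs by 1.08 ± 0.15 (log2; adjusted p = 1.68e-05) for Timp2 and by 1.13 ± 0.21 (adjusted p = 0.000285) for Timp3, while for Timp3 ECs and epithelial cells did not separate (adjusted p = 0.716). Timp1, Timp3 and Timp4 overlap Syn1, Syn3 and Syn2 on the opposite strand, and Timp2 overlaps Cep295nl on its own strand, so reads of the shared stretches depend on how the counting assigned them.

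Among epithelial types the inhibitor level was highest in the AT1-like cells, which held 5748 of the 9239 epithelial TIMP UMIs, against 3168 in the more numerous AT2-like cells. Timp3 was at 1471, 1016 and 1457 CPM in AT1-like cells and 114, 130 and 132 CPM in AT2-like cells, and Timp2 at 805, 634 and 670 CPM against 52.3, 49.4 and 54.4 CPM. AT1-like cells were above the other epithelial types by 3.37 ± 0.17 for Timp3 (log2; adjusted p = 9.66e-25) and by 3.36 ± 0.16 for Timp2 (adjusted p = 3.13e-25). Timp3 in AT1-like cells overlapped with Col14a1-type fibroblasts at 952, 1397 and 1121 CPM, where Timp2 reached 1325, 1605 and 1070 CPM. Timp1, the inducible inhibitor, was low, with 81.8, 80.3 and 37.2 CPM in Col14a1-type fibroblasts. Alveolar macrophage-like cells, at a mean of 26.9 CPM of Timp1, overlapped with these fibroblasts and were called above the other immune types. The whole immune class held only 13 Timp1 UMIs, in 5 cells. Timp4 was read in smooth muscle-like cells at 127, 154 and 127 CPM, against at most 9.12 CPM in any mouse of the other tested types. DESeq2 gave an adjusted p of 0.0856 for Timp4, both between stromal cells and ECs and between smooth muscle-like cells and the other stromal types.

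Set against each other as UMI counts, inhibitors outnumbered MMPs in some cells and were outnumbered in others. The ratio of TIMP to MMP UMIs by mouse was 2.78 to 4.44 in AT1-like cells, 2.68 to 3.64 in arterial ECs and 2.36 to 3.01 in Car4-type capillary ECs. It was 1.39 to 1.46 in the stromal class, 0.605 to 0.656 in AT2-like cells and 0.0583 to 0.135 in neutrophil-like cells. AT1-like and AT2-like cells thus did not overlap, and neither did Car4-type and Aplnr-type capillary ECs, the latter at 0.795 to 1.00. These ratios compare transcripts, not protein or activity.

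Within each class the members were compared between a type and the mean of the other types of its class, for 34 members and 12437 genes. A member was higher in at least 1 type for 30 members in the stroma (53.3% of genes), 16 in ECs (28.2%), 13 in the epithelium (53.1%) and 19 in immune cells (77.0%), so that the share of members lay above that of all genes in the stroma and ECs and below it in the other classes. In the stroma smooth muscle-like cells had 16 members higher (17.2% of genes) and 8 lower (9.76%), Col14a1-type fibroblasts 15 higher (14.8%) and 1 lower (6.87%), Aspn-led myofibroblasts 14 higher (12%) and 1 lower (6.54%), and Col13a1-type fibroblasts 11 higher (16.3%) and 9 lower (10.2%). Mmp9 is among those higher in smooth muscle-like cells and in Col14a1-type fibroblasts. It had only 25 UMIs in all stromal cells, 23 of them from mouse 3. The Agt-led Pdgfra fibroblasts had 6 higher (10.7%) and 5 lower (8.58%). Pericyte-like cells stood at the other end with 3 higher (Adamtsl3, Adamtsl5 and Mmp15, the last lost with the mouse as a block; 11.8%) and 14 lower (11.9%), among them Mmp2, Mmp14, Adamts2, Timp2 and Timp3. Among ECs the venous cluster had 9 members higher (9.19%) and 1, Mmp15, lower (6.01%), Aplnr-type capillary ECs 5 higher (7.99%) and 5 lower (3.85%), Car4-type capillary ECs 4 higher (9.78%) and 2, Adamts1 and Mmp2, lower (8.11%), and arterial ECs 1, Timp2, higher (7.42%) and 5 lower (7.23%). AT1-like cells had 8 higher (15.5%) and 2, Adamts5 and Mmp15, lower (19.5%), AT2-like cells 4 higher (21.5%) and 6 lower (14.2%), and club-like cells 3 higher (19.6%) and 7 lower (17.7%). The club-like count includes Timp4, which had 9 UMIs in all epithelial cells, all from mouse 2. Alveolar macrophage-like cells had 6 higher (14.2%), interstitial macrophage-like cells 4 (10.2%), dendritic-like cells 3 (22.2%), NK-like cells 2 (9.05%), T cell-like cells 1 (18%) and basophil- or mast-like cells 1 (6.04%). Among these, Adamtsl5 and Timp1 in alveolar macrophage-like cells had 10 and 13 UMIs in all immune cells. Mmp23 in dendritic-like and Adamtsl1 in basophil- or mast-like cells had 18 and 14. B cell-like cells had none higher (35.6%), and Timp2 was called lower in them (8.31%) and in the basophil- or mast-like cells (3.98%).

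Other genes of the same pathway, among them activators, receptors and related proteases, were read beside the members. The list held 20 genes, of which 18 were tested between classes. Of these, 6 were highest in the stroma (Adam33, Lrp1, Pcsk6, Reck, Serpinh1 and Thsd4; 15.2% of genes), 4 in ECs (Adam10, Adam12, Adam15 and Pcsk5; 10.8%), 3 in epithelial cells (Adam19, Bsg and Spock2; 16.7%, the share these 3 make of 18) and 2 in immune cells (Adam8 and Plaur; 22.8%), while Furin, Adam9 and Adam17 passed in no class. Lrp1, the endocytic receptor that clears MMPs, ADAMTS proteases and TIMPs, was at 391, 418 and 376 CPM in stromal cells and had a mean of 36.7 CPM in the next class, the immune cells. The membrane proteases Adam33 and Adam15 stood at 237 ± 25.6 CPM in stromal cells and 265 ± 5.58 CPM in ECs. Spock2, a proteoglycan of the testican family, was at 152, 86.6 and 211 CPM in epithelial cells and at a mean of 7.76 CPM in ECs, and Adam8, a leukocyte protease, was at 87.4, 107 and 103 CPM in immune cells.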

How the data were processed

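Lungs of 3 mice were dissociated and their cells run on the 10x Genomics platform with a 3′ kit. The authors deposited raw UMI counts per gene and barcode, made per the submitters' processing notes with Cell Ranger 3.0.2 on mm10; the annotation version was not given in the sources used here. The study states 5677 cells, whereas the tables held 9644 barcodes, of which 7642 passed the filter used here (200 genes, 20% mitochondrial UMIs) and 5267 a stricter one (500 genes, 10%). Doublets were scored, the automatic threshold marked under 0.3% of cells, and the top scores were marked instead (201 among the kept cells) and left out only as an alternative.

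Cells were normalized and clustered with Seurat 5.3.0 and sctransform 0.4.2 in R 4.3.3 (3000 variable genes less the members, resolution 0.8) and named from marker lists. UMI counts were summed by mouse and class, and by mouse and type where a mouse had at least 10 cells. edgeR 4.0.16 (TMM, filterByExpr, quasi-likelihood test) compared classes with each other and each type with the mean of the other types of its class, all genes adjusted together, and DESeq2 1.42.0 was an alternative. SEs are the fold change divided by the square root of F. Fitted folds against groups at or near 0 depend on the prior count, so levels are given for such members. Class folds were also printed for Mmp9, Mmp12 and Adamts18, against classes with means of 1.58, 0.406 and 0.536 CPM. The size of those folds is therefore uncertain. On simulated counts in which 200 genes differed by a log2 change of 2, edgeR recovered 96% of them in the comparison of stromal cells with ECs and 83.5% for the Col14a1-type fibroblasts. The simulated sums were independent, with the same spread for every gene and no mouse effect. Genes of the lowest levels were not among those changed. These rates check the procedure and need not hold for the real sums or for members near 0.

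The members, the marker and pathway lists and the thresholds for naming clusters were chosen with earlier results of these data known. Members were given values in every mouse where they reached 20 CPM in a class or type; of the pathway list the 5 with the largest difference between the highest and the next class were named, and other members were named to account for all 51. Sums of the same mouse deviated together (correlations of 0.115 to 0.408 over 18 pairs of classes and 7604 genes), so the mouse pairs the sums and was tried as a block. Other alternatives were the filter, TMM, doublets, clustering settings, weighting and leaving out each mouse. Motifs were searched in RefSeq promoters of GRCm38.p6, and 36 of 51 members matched. 1 cluster outside the 4 classes is not reported here.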

Additional observations from a re-analysis of the deposited data

Results flagged for a closer look

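The signal of 1 member stood out in a cluster that was left out of the comparisons because it belonged to none of the 4 classes. Mmp19 had 51 UMIs, or 596 CPM with the mice pooled, in the 31 cells of the cluster led by the platelet gene Pf4, where the highest named type had 78.4 CPM. Of these 51 UMIs, 43 came from 1 cell of mouse 2 with 56958 UMIs in total, and 7 of the 31 cells held any. All MMP genes together had 44, 6 and 2 UMIs in this cluster in mice 2, 3 and 4, or 694, 572 and 171 CPM. Mouse 4 had only 9 of these cells. Most of the Mmp19 count thus came from that 1 cell, and the level outside it rests on few UMIs.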

How the results depend on the processing

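Of the 32 class folds and 34 type folds followed through the alternatives, none changed sign where it was recomputed. The median over all genes did change sign without TMM in some comparisons. It went from 0.06 to -0.04 for stromal cells over ECs and from -0.16 to 0.21 for AT1-like cells. Leaving out each mouse in turn gave 23 to 24 members called highest in stromal cells, 2 to 3 in ECs, 1 to 1 in epithelial cells and 4 to 6 in immune cells, and 29 to 30, 13 to 15, 14 to 15 and 12 to 18 members higher in some type of the stromal, EC, epithelial and immune classes. The 12 came without mouse 4. The share of all genes called under each alternative is not given, here or for the counts below. Changes in these counts therefore cannot be read as particular to the members. The shares of member UMIs ran from 63.7% to 66.3% (stromal), 12.4% to 13.3% (EC), 15.1% to 18.4% (epithelial) and 2.87% to 4.20% (immune). Without TMM no member was called highest in epithelial cells (count 0), since Mmp15 missed the threshold, and the median of all genes moved by up to 0.46 on the log2 scale between classes and by -0.67 to 0.37 between types. Weighting every cell equally moved the shares to 60.7% (stromal), 10.0% (epithelial) and 10.6% (immune). The epithelial share then lay below that of the ECs (13.3%). With the mouse as a replicate block, as the pairing check called for, the class counts were 24, 4, 1 and 4 (stromal, EC, epithelial, immune) and the type counts 29, 16, 13 and 19, so that Adamts1 joined the EC calls and Mmp15 left the stromal types. After the data had been seen, the highest cell of each member, 42 cells in all, was left out: the class counts stayed at 24, 3, 1 and 4, with Adamts1 in place of Adamts18 among the ECs. Beyond the calls given above, DESeq2 lost Mmp8 in neutrophil-like cells (log2 difference 8.96, adjusted p = 0.123) and gave no adjusted p for Mmp13 in interstitial macrophage-like cells (log2 difference 6.24), and Adamts4 in smooth muscle-like cells was lost without mouse 2 (adjusted p = 0.108). The 71 alveolar macrophage-like cells limit the precision of Mmp12, and genes at 0 UMIs were not detectable at this depth.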
